A study of Mus musculus with 10 samples.

Results

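The Mediator complex was described here gene by gene in RNA sequencing of whole mouse hearts. The 33 genes were chosen as the subunits of Mediator and its kinase module, and the set was drawn up because 1 of them, Med16, was among the genes that fell in these same hearts. Of the 33, 32 had a row among the 15341 genes of the count table and all 32 passed the filter on low counts, against 12992 genes that passed in all. Med20 was not analysed here.

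Hearts came from 10 male mice, 5 labelled plasma S1Pless and 5 littermate controls. All 10 animals were Sphk1f/-:Sphk2f/-, that is, 1 floxed and 1 null allele of each sphingosine kinase gene, so the controls also carried the null alleles. The S1Pless animals were Mx1Cre+ and the controls Mx1Cre-. Mx1-Cre is driven by a promoter that answers to interferon and works in blood-forming cells and in some other cells, so the groups differ in the transgene itself as well as in the kinases, and loss of the kinases within heart cells is possible. Age and any inducing agent are not given in the labels. The kinase genes, the check on the labels, were not called: the log2 fold change was -0.74 ± 0.28 (SE) for Sphk1 and -0.27 ± 0.11 for Sphk2 (edgeR's quasi-likelihood test, adjusted p = 0.168 and 0.180). Reads were summed over the gene, so the floxed and the null allele are not resolved.

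Mediator is the large coactivator that joins DNA-bound transcription factors to RNA polymerase II at promoters. Its head and middle modules contact the polymerase, the tail receives most activators, Med14 is the backbone that holds these together, and a separable kinase module built on cyclin C and Cdk8 or Cdk19 binds reversibly and blocks the polymerase's site. Med16 sits in the tail, beside Med23, Med24 and Med25, and is known for passing on signals of the antioxidant factor NRF2. In heart muscle, Med13 is known to restrain genes driven by thyroid hormone and other nuclear receptors. No protein, complex assembly or chromatin binding was measured in these hearts.

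Each library held 16354071 to 20832566 reads. Levels are reads per gene scaled to a common library total (CPM) with a factor for each library, and a fold change is S1Pless against control. Library factors were 0.884 to 1.00 in controls and 0.996 to 1.08 in S1Pless hearts, and controls carry the lower library numbers and S1Pless hearts the higher ones, so library order and group cannot be told apart. Heart muscle markers were abundant in every library, with Myh6, the main adult myosin, at 19530 ± 1781 CPM in controls against 17399 ± 2652 CPM in S1Pless hearts (SD, n = 5 each). Of 12 macrophage markers 7 were higher in S1Pless hearts and none lower, where 3.40% and 0.316% of all genes tested were, and their summed level was 225 to 295 CPM in controls against 363 to 802 CPM in S1Pless hearts, highest in S1Pless replicate 5. The number called fell to 4 with a covariate for the series of the title number and to 0 with a block for neighbouring title numbers. It was 2 with control replicate 2, 3, 4 or 5 left out. All 12 lay above 0 in each of these fits. Ighd, a B cell gene, was lower and Erg, an endothelial gene, higher, as the only called genes of 4 B cell and 10 endothelial markers tested. With the block for neighbouring title numbers neither passed. Erg also did not pass with control replicate 2, 3, 4 or 5 or S1Pless replicate 1, 2 or 5 left out. Ighd was scarce, at 1.56 CPM in controls against 0.514 CPM in S1Pless hearts. Ighm, another B cell gene, leaned upward (log2 fold change 0.50 ± 0.16, not called). The summed B cell level was 11.6 to 16.1 CPM in controls and 11.8 to 23.3 CPM in S1Pless hearts. Of the endothelial markers 7 lay above 0 and 3 below. No marker of heart muscle, T cells, neutrophils, fibroblasts, smooth muscle and pericytes or red cells was called in edgeR's test, although 7 of these 37 tested markers had an unadjusted p below 0.05, as did 19.9% of all genes. All 10 heart muscle markers lay below 0 (median log2 fold change -0.18), where 52.6% of all genes did. All 8 fibroblast (median 0.23), 3 T cell, 3 neutrophil and 5 red cell markers tested lay above 0. Of 8 smooth muscle and pericyte markers 5 lay below 0. DESeq2 called 2 fibroblast markers higher and 1 heart muscle marker lower.

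Med16 was the only 1 of the 32 Mediator genes called lower in S1Pless hearts, and none was called higher. Med16 (ENSMUSG00000013833) stood at 23.1, 34.8, 38.4, 39.0 and 37.3 CPM in control replicates 1 to 5 and at 13.1, 16.9, 17, 19.7 and 15.4 CPM in S1Pless replicates 1 to 5. Control replicate 1 was well below the other 4 controls, yet every S1Pless heart lay below it, so the groups did not overlap. These levels rest on 351 to 722 reads per control library and 291 to 390 reads per S1Pless library. The fitted log2 fold change was -1.08 ± 0.14 (SE), with a 95% interval of -1.38 to -0.77, which is 2.11-fold lower. Since Med16 was picked from this contrast, these values describe it and no test of them is given. The interval takes no account of that choice. In whole-tissue RNA, fewer cells of a type and less RNA per cell cannot be told apart. Macrophage markers were higher in the same S1Pless hearts, and the summed level of 10 heart muscle markers was 63403 to 72663 CPM in controls and 52589 to 65010 CPM in S1Pless hearts. Their part in the Med16 value was not tested.

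Over all 12992 genes tested 0.316% were called lower and 3.40% higher (adjusted p below 0.05 in the edgeR fit). Among the 32 Mediator genes 1 was lower, Med16 itself, which was known when the set was chosen, and 0 were higher, and DESeq2 and limma-voom gave the same counts. The groups did not overlap in 1 of the 32, again Med16, against 6.35% of all genes tested. An unadjusted p below 0.05 was seen in 2 of the 32, Med16 and Med15, against 19.9% of all genes. The 31 members beside Med16 had log2 fold changes from -0.30 to 0.35 with a median of -0.04, close to the median of -0.01 over all genes. Of the 31, 19 lay below 0, where 52.6% of all genes did. With RLE factors and with DESeq2 22 of the 31 did, where 55.7% and 55.6% of all genes did. Library totals in place of the scaling factors raised all genes, to a median of 0.12 with 25.1% below 0, and then 7 of the 31 lay below 0. Relative to the median of all genes the median of the 31 was -0.03 with the factors and -0.02 with totals. The 95% intervals of these 31 reached down to -0.64 at the lowest, for Med12l, and up to 0.78 at the highest, for Med11.

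**Figure D1:**
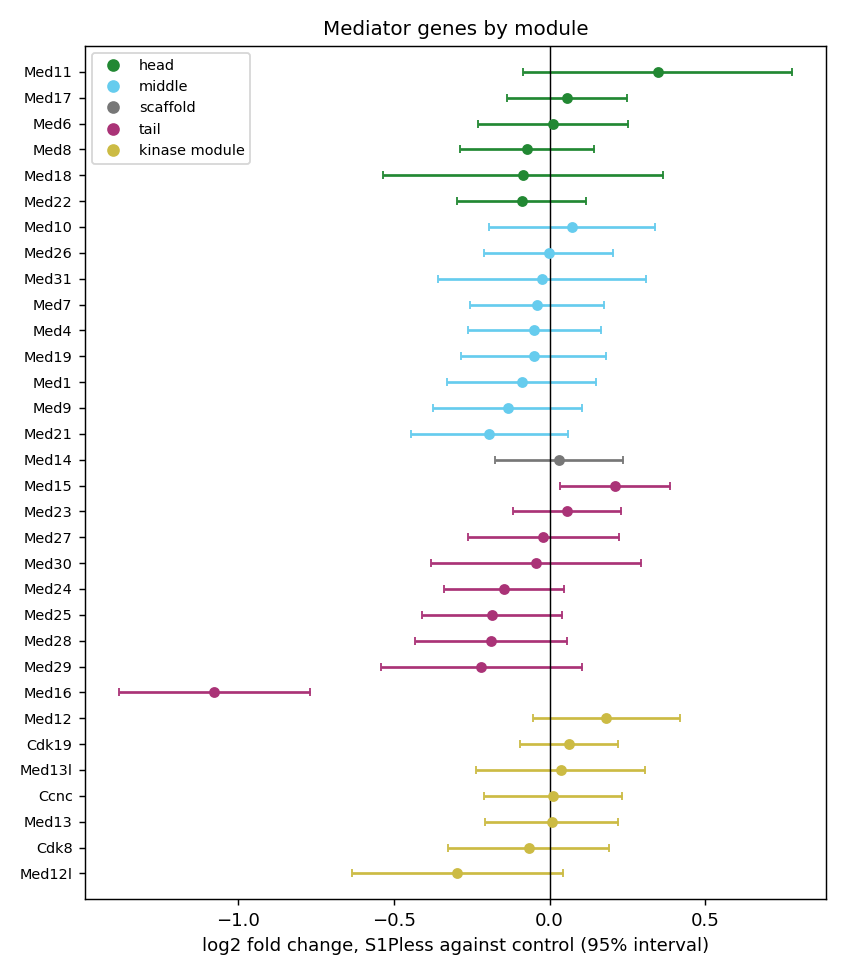
Log2 fold change of S1Pless against control hearts for each of 32 Mediator genes, coloured by module; points are fitted values and bars 95% intervals (5 hearts per group). Med16 lies at -1.08, with an interval that takes no account of its choice from this contrast. The other 31 points lie between -0.30 and 0.35.

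None of the tail subunits that stand next to Med16 in the complex was called, where 3.72% of all genes were. Med24, a close structural partner of Med16, had 40.9, 49.9, 46.1, 47.5 and 49.4 CPM in control replicates 1 to 5 and 36.5, 43.2, 41.5, 48.3 and 41.7 CPM in S1Pless replicates 1 to 5. The ranges overlapped widely, and the log2 fold change of -0.15 ± 0.09 (SE) was not called (edgeR adjusted p = 0.389). Med25, a target of strong viral and ETS-family activators, had 54.0, 78.2, 68.1, 74.6 and 75.9 CPM in controls and 53.7, 63.8, 61.2, 65.2 and 65.1 CPM in S1Pless hearts. Here control replicate 1 was again the low one of its group, at the level of the lowest S1Pless heart, and the log2 fold change of -0.18 ± 0.10 was not called (adjusted p = 0.356). Without control replicate 1 that p was 0.0811. Med23, which receives signals from the growth-factor-responsive protein Elk1, was the steadiest of these neighbours, at 19.4, 20.6, 17.6, 21.1 and 19.1 CPM in controls and 20.5, 19.6, 20.5, 22.2 and 18.9 CPM in S1Pless hearts. Its log2 fold change of 0.06 ± 0.08 had a 95% interval of -0.12 to 0.23.

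Med15, the tail subunit that binds the sterol regulator SREBP, leaned the other way from Med16. It had 30.1, 33.2, 29.2, 35.2 and 29.2 CPM in control replicates 1 to 5 and 34.8, 33.9, 35.7, 37.6 and 39.6 CPM in S1Pless replicates 1 to 5. A single control, replicate 4, reached into the S1Pless range. The log2 fold change of 0.21 ± 0.08 was not called (edgeR adjusted p = 0.176, unadjusted p = 0.0231). Only with library totals in place of the scaling factors did it pass (adjusted p = 0.0426), a setting that moved all genes upward by a median of 0.14 on the log2 scale. The remaining tail subunits, Med27, Med28, Med29 and Med30, which join the tail to the head and backbone, had log2 fold changes of -0.02 ± 0.11, -0.19 ± 0.11, -0.22 ± 0.15 and -0.04 ± 0.16 and none was called (adjusted p from 0.389 to 0.943).

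**Figure D2:**
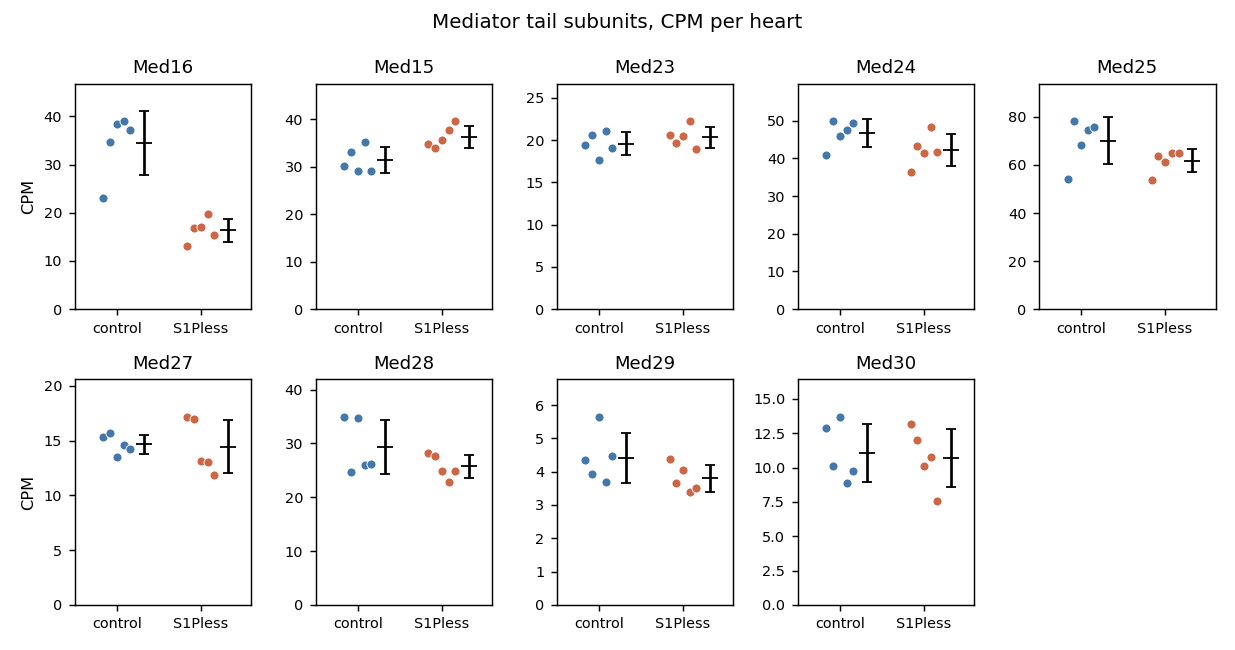
CPM of the 9 tail subunits in each heart; points are hearts (5 control, 5 S1Pless, in replicate order from left to right), with the mean and SD of each group beside them in black. Med16 separates the groups, with all S1Pless hearts at or under 19.7 CPM and all controls at or over 23.1 CPM, and the groups overlap in the other 8.

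Levels of different genes were set beside each other as CPM per kilobase of annotated exon. That length joins the exons of all annotated transcripts of a gene and can exceed that of the transcript expressed. Ranks on this scale and ratios between genes depend on that length. On that scale Med16 was the fifth of the 32 Mediator genes in controls, at 7.40 ± 1.4 (SD, n = 5), and rank 22 in S1Pless hearts, at 3.52 ± 0.51. In controls its level lay within 1 SD of the levels of Med6 (7.27 ± 0.86), Med24 (7.16 ± 0.55) and Med4 (7.15 ± 0.71). In S1Pless hearts it lay beside Med31 (3.52 ± 0.74) and Med14 (3.89 ± 0.41). Med9, Cdk8, Med30 and Med25 were the 4 highest in both groups, from 9.20 to 11.7 in controls, and Med18 and Med12l were the 2 lowest, at 0.855 and 0.667 in controls.

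Set against Med24 in the same library and on this length scale, Med16 was near parity in most controls and well under it in every S1Pless heart. Its level per kilobase divided by that of Med24 was 0.790, 0.976, 1.17, 1.15 and 1.06 in control replicates 1 to 5 and 0.504, 0.547, 0.574, 0.569 and 0.516 in S1Pless replicates 1 to 5. Of the summed level of the 9 tail subunits per kilobase, Med16 made up 9.97% to 16.2% in controls and 6.01% to 8.98% in S1Pless hearts. These ratios are taken within a library, so library scaling cancels, and they rest on the same reads that chose Med16. They give RNA levels only and say nothing of the stoichiometry of the complex.

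**Figure D3:**
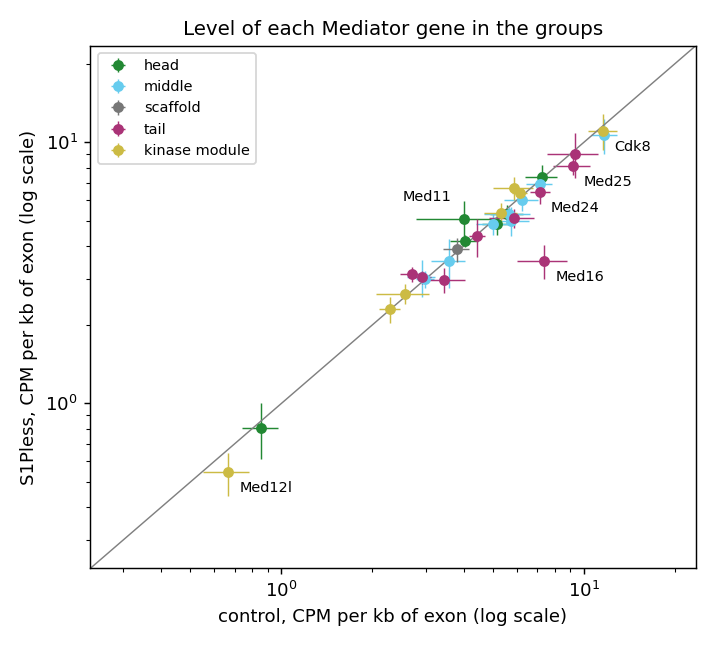
Mean level of each of 32 Mediator genes in control hearts (x) and S1Pless hearts (y), in CPM per kilobase of exon on log axes; bars are SD over 5 hearts and the grey line marks equal levels. Med16 lies below the line, at 7.40 and 3.52, and the others lie along it.

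Head subunits, which make the main contact with RNA polymerase II, were called in no case (0 of 6 tested, against 3.72% of all genes, edgeR adjusted p from 0.364 to 0.966). Med11, whose protein pairs with Med22, had the smallest p of the head, with 5.20, 3.17, 5.91, 3.76 and 2.96 CPM in control replicates 1 to 5 and 6.45, 5.20, 6.04, 4.33 and 4.65 CPM in S1Pless replicates 1 to 5. Its controls spread more than those of any other member, with a coefficient of variation of 30.8%, and the groups overlapped. The log2 fold change of 0.35 ± 0.20 had an interval of -0.08 to 0.78. Its partner Med22 had -0.09 ± 0.10, and Med17, the core of the head, 17.1 ± 1.9 CPM in controls against 17.7 ± 0.90 CPM in S1Pless hearts (log2 fold change 0.06 ± 0.09). Med6 (0.01 ± 0.11), Med8 (-0.07 ± 0.10) and Med18 (-0.09 ± 0.21) were likewise not called, and Med18, at 1.71 ± 0.23 CPM in controls, was the lowest of all members in CPM and is measured least firmly among the head genes.

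The middle module and its backbone gave the same picture, with 0 of 10 called, against 3.72% of all genes. Med21, which forms the hinge of the middle module with Med7, had the smallest p there: 24.3, 19.4, 21.6, 16.6 and 19.3 CPM in control replicates 1 to 5 and 20.1, 19, 18, 17 and 14.2 CPM in S1Pless replicates 1 to 5. Both groups spread over several CPM and 4 of the 5 S1Pless hearts lay within the control range. The log2 fold change of -0.19 ± 0.12 was not called (edgeR adjusted p = 0.387), and its partner Med7 had -0.04 ± 0.10. Med1, the subunit that docks ligand-bound nuclear receptors, had 49.4 ± 8.4 CPM in controls against 46.5 ± 3.2 CPM in S1Pless hearts (-0.09 ± 0.11). Med26, which recruits elongation factors, had 8.97 ± 0.63 and 8.95 ± 0.67 CPM, which gives -0.00 ± 0.10 with an interval of -0.21 to 0.20. The backbone Med14 had 33.3 ± 3.3 and 34.0 ± 3.6 CPM (0.03 ± 0.10). Med4, Med9, Med10, Med19 and Med31, the other structural subunits of the middle, lay between -0.13 and 0.07. Exons of Med21, Med19 and Med31 overlap a gene on the opposite strand in GENCODE M21, as do those of Med12l and Ccnc in the kinase module. The strand setting of the counting is not given, so these 5 genes may have lost shared reads or include the partner's.

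In the kinase module, 0 of 7 genes were called, against 3.72% of all genes. Cdk8, the kinase itself, had 113, 128, 125, 102 and 102 CPM in control replicates 1 to 5 and 123, 120, 118, 81.6 and 102 CPM in S1Pless replicates 1 to 5. S1Pless replicate 4 was the lowest of all hearts, and the log2 fold change was -0.07 ± 0.12 (edgeR adjusted p = 0.795). Its paralogue Cdk19, which can take its place, had 35.9 ± 2.0 and 37.5 ± 1.6 CPM (0.06 ± 0.07), the tightest interval of any member at -0.09 to 0.22. Ccnc, the cyclin C partner of either kinase, had 11.7 ± 0.93 and 11.8 ± 1.3 CPM (0.01 ± 0.10).

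Med12, the activator of the kinase, and its paralogue Med12l leaned in opposite directions without a call. Med12 had 47.1, 50.1, 36.7, 52.8 and 40.1 CPM in control replicates 1 to 5 and 49.7, 43.7, 55.3, 56.1 and 52.5 CPM in S1Pless replicates 1 to 5, a log2 fold change of 0.18 ± 0.11 (edgeR adjusted p = 0.385). Med12l had the smallest p of the module, at 7.96, 8.65, 6.34, 9.42 and 10.2 CPM in controls and 4.78, 7.11, 7.20, 7.41 and 8.25 CPM in S1Pless hearts. Its groups overlapped, and the log2 fold change of -0.30 ± 0.16 had an interval of -0.64 to 0.04 (adjusted p = 0.326). Part of Med12l shares exon sequence with P2ry12 and Igsf10 on the opposite strand. Med13, which ties the kinase module to the core, had 57.8 ± 7.1 and 58.1 ± 5.2 CPM (0.01 ± 0.10), and its paralogue Med13l 39.5 ± 7.8 and 40.6 ± 3.7 CPM (0.04 ± 0.13). Per kilobase, Med13l stood at 0.351 to 0.614 of Med13 in controls and 0.444 to 0.593 in S1Pless hearts, and Cdk19 at 0.446 to 0.580 of Cdk8 in controls and 0.481 to 0.759 in S1Pless hearts.

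**Figure D4:**
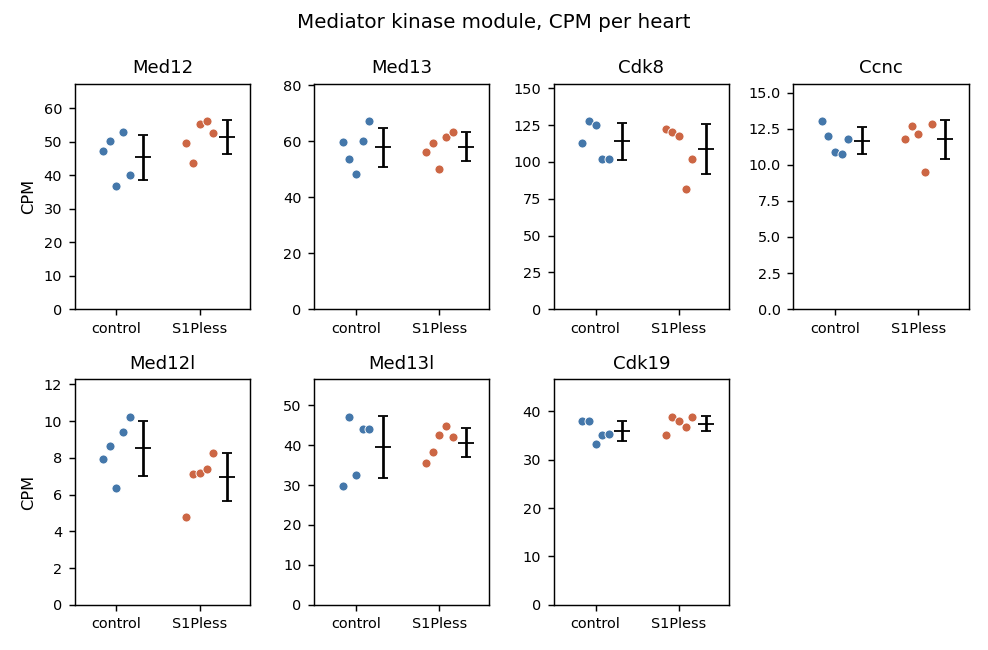
CPM of the 7 kinase-module genes in each heart; points are hearts (5 control, 5 S1Pless, in replicate order from left to right), with the mean and SD of each group in black. The groups overlap in every gene, and Med12l, at 4.78 to 8.25 CPM in S1Pless hearts and 6.34 to 10.2 CPM in controls, shows the largest shift downward.

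None of the tested genes that lie beside Med16 in the genome was called lower. In GENCODE M21, an annotation of the older build GRCm38 used here for gene order, exon lengths and overlaps, Med16 lies on chromosome 10 and overlaps 0 other annotated genes. Of the 10 genes of the count table on each side, 14 had enough reads to test, of which 0 were called lower and 1 higher, against 0.316% and 3.40% of all genes. The median of the 14 was a log2 fold change of 0.09. R3hdm4, the next gene on the side of the Med16 start and on the same strand, had 67.9 ± 3.9 CPM in controls against 61.3 ± 2.8 CPM in S1Pless hearts, a log2 fold change of -0.15 ± 0.07 (edgeR adjusted p = 0.300). Arid3a, the next tested gene beyond it, had 0.27 ± 0.23. On the other side Cfd, the adipose gene adipsin, and Prtn3 had at most 19 and 5 reads in a library and were not tested, and the nearest tested genes were Plppr3 (0.27 ± 0.39) and Ptbp1, a splicing regulator (0.26 ± 0.10, adjusted p = 0.170). The higher gene was Arhgap45, which lay 9 genes away and rose 1.57-fold from 11.4 ± 1.3 to 17.8 ± 3.2 CPM (adjusted p = 0.0192). It did not pass with control replicate 3 or 4 left out (adjusted p = 0.0541 and 0.0544) and with the block for neighbouring title numbers (0.101).

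**Figure D5:**
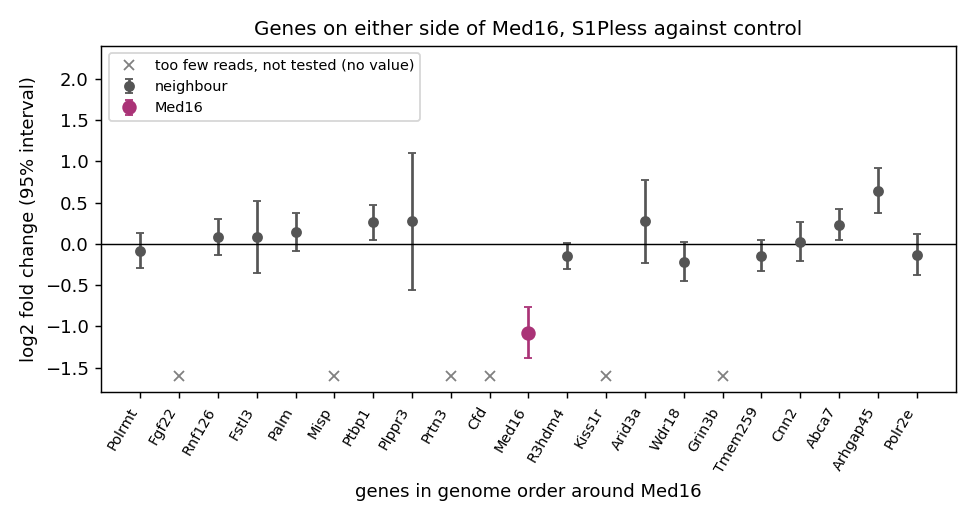
Log2 fold change of S1Pless against control hearts for Med16 and the 10 genes of the count table on each side of it, in genome order; points are fitted values, bars 95% intervals, and crosses mark genes with too few reads to test, placed at the foot with no value. Med16 lies at -1.08 and the tested neighbours between -0.21 and 0.65.

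The rest of the transcription machinery that works with Mediator was also without calls. Of 13 RNA polymerase II subunits, 30 general transcription factor genes, 19 elongation factors and 11 cohesin genes, 0 were called in edgeR's test, where 3.72% of all genes were. An unadjusted p below 0.05 was seen in 2, 1, 1 and 0 of them, against 19.9% of all genes. Their median log2 fold changes were -0.18, -0.10, 0.00 and 0.03. Of them 12 of 13, 26 of 30, 7 of 19 and 3 of 11 lay below 0, where 52.6% of all genes did. With library totals alone 9, 10, 3 and 0 lay below 0, where 25.1% of all genes did, as all genes moved up together. Relative to the median of all genes the 4 medians were -0.16, -0.08, 0.02 and 0.04 under either scaling. The genes with the smallest p were Polr2m at -0.19 ± 0.09 (adjusted p = 0.226), Gtf2a1, part of TFIIA, at -0.23 ± 0.09 (0.165), the pausing factor gene Nelfcd at -0.23 ± 0.08 (0.132) and Pds5b at 0.12 ± 0.09 (0.504). In Nelfcd the groups did not overlap. DESeq2 called Polr2m lower (adjusted p = 0.0264), the only call by that tool in these 4 lists.

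Of 20 NRF2 target genes 1 was called higher and 0 lower, against 3.40% and 0.316% of all genes, and 5 had an unadjusted p below 0.05, against 19.9%. Hmox1, which breaks down heme and is also strongly expressed by macrophages, rose 2.13-fold (log2 fold change 1.09 ± 0.24, edgeR adjusted p = 0.0255). It had 8.62, 7.79, 9.00, 7.68 and 7.21 CPM in control replicates 1 to 5 and 12.5, 14.0, 14.2, 13.2 and 31.9 CPM in S1Pless replicates 1 to 5. All S1Pless hearts lay above all controls, with S1Pless replicate 5, the heart with the highest summed macrophage level, far above the rest. Without that heart the log2 fold change was 0.73 (adjusted p = 0.00759). It did not pass with control replicate 2, 3, 4 or 5 left out (adjusted p from 0.0553 to 0.0724), with the title series covariate (0.0536) and with the block for neighbouring title numbers (0.190). The part of macrophages in this value was not tested. Nqo1, a classic NRF2 target, leaned the other way, at 56.8 ± 2.8 CPM in controls against 45.8 ± 5.5 CPM in S1Pless hearts, with groups that did not overlap but an adjusted p of 0.0794 in edgeR. DESeq2 called Nqo1 lower (adjusted p = 0.0179). Ftl1, another of the targets, leaned upward and was not called in edgeR (log2 fold change 0.41 ± 0.12, adjusted p = 0.0718). DESeq2 and limma-voom called Ftl1 higher (adjusted p = 0.0194 and 0.0372). The 20 targets had a median of -0.06, and relative to the median of all genes -0.04 under either scaling.

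None of 19 SREBP target genes and none of 24 activators and receptors that bind Mediator was called by edgeR, where 3.72% of all genes were. An unadjusted p below 0.05 was seen in 4 and 2 of them, against 19.9% of all genes. The smallest p-values were those of Cyp51, a sterol synthesis enzyme (-0.30 ± 0.10, adjusted p = 0.115), and of the thyroid hormone receptor gene Thrb (-0.23 ± 0.10, adjusted p = 0.228). DESeq2 called 0 in either list. The medians were -0.02 and -0.11, and relative to the median of all genes -0.01 and -0.10 under either scaling.

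The titles of some hearts carry neighbouring numbers, whose meaning is not stated. The Med16 values by these sets are the ones that chose Med16, and are given as a description only. Where control replicate 1 stood with S1Pless replicates 1 and 2, Med16 was 23.1 CPM in the control and 15.0 CPM on average in the S1Pless hearts. Where control replicate 2 stood with S1Pless replicate 3, the values were 34.8 and 17 CPM. Where control replicate 5 stood with S1Pless replicates 4 and 5, they were 37.3 and 17.5 CPM. The ratio of control to S1Pless was 1.54, 2.05 and 2.13 in these sets, and control replicates 3 and 4 had no S1Pless heart in theirs. With these sets as a block in the fit, the log2 fold change of Med16 was -0.91. In the set of control replicate 1 both groups had their lowest Med16 heart, control replicate 1 and S1Pless replicate 1, which were also the lowest of their groups in Med24 and Med25.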

How the data were processed

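RNA was sequenced from 10 mouse hearts, each a separate library. The authors deposited raw counts for each Ensembl gene and library. Per the submitters' processing notes the tools were STAR 2.7.8a and featureCounts 2.0.1, with build GRCm39. The annotation, the strand setting and the handling of multi-mapping reads were not given in the sources used here. Symbols and exon lengths came from GENCODE M21; 20 genes had no symbol. Replicates were numbered in accession order, and every pair of libraries of a group differed by more than sampling noise (lowest chi-square 10.5 per degree of freedom). The highest values were those of control replicate 1 against control replicates 2, 5 and 4 (73.3, 70.1 and 62.9). Against control replicate 3 it was 26.4. Among S1Pless hearts the highest was 49.1, between replicates 1 and 4.

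Counts were fitted with edgeR 4.0.16 in R 4.3.3 (filterByExpr at 10 counts, TMM, robust glmQLFit, two-sided glmQLFTest), with Benjamini-Hochberg adjustment over 12992 genes and a threshold of 0.05. The standard error is the log2 fold change over the square root of F, and intervals use the fit's degrees of freedom. The test was tried on simulated counts. Alternatives were RLE and upper-quartile factors, library totals alone, DESeq2 1.42.0, limma-voom (limma 3.58.1), no filter, 1 CPM in 5 libraries, a covariate for the series of the title number, a block of 4 sets of neighbouring title numbers and leaving out each heart.

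The members and all lists were chosen with earlier results of these data known. Genes named are the members, the 2 nearest tested neighbours of Med16 on each side, called neighbours, and of each pathway list the called genes or the one with the smallest p. Nqo1 and Ftl1 were singled out after their values were seen, as were the marker genes named.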

Additional observations from a re-analysis of the deposited data

Results flagged for a closer look

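Of 64 groups of 5 hearts, 1 for each of 32 Mediator genes in each genotype, 4 held a heart far from the others by Dixon's ratio (above its 95% critical value). Chance flags about 1 in 20 groups. Control replicate 1 had 23.1 CPM of Med16, against 34.8 to 39.0 CPM in the other controls, and without it the log2 fold change of Med16 was -1.20. Control replicate 3 had 22 CPM of Med22, against 17 to 18.2 CPM. S1Pless replicate 5 had 19.3 CPM of Med17, against 17.1 to 17.6 CPM, and 9.86 CPM of Med10, against 14.1 to 15.3 CPM.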

How the results depend on the processing

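Over the 19 alternatives the log2 fold change of Med16 ran from -1.20 (without control replicate 1) to -0.91 (block of neighbouring title numbers). Leaving out a heart gave -1.20 to -1.005. Med16 was picked from these same hearts, so this range is a description and no support. The other 31 members passed once in 589 values: Med15 with library totals alone, where 1 member was higher and the median member stood at 0.10, against -0.04. That setting shifted all genes by a median of 0.14. Leaving out a heart gave a median member between -0.07 and -0.00.

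Counts over all genes moved more. Against 41 lower and 442 higher, library totals gave 13 and 1420, DESeq2 264 and 764, and the block 8 and 80. Leaving out a heart gave 8 to 85 lower, the extremes without control replicates 3 and 1, and 118 to 504 higher, the extremes again without control replicates 3 and 1. Of the 14 tested neighbours of Med16, 3 were higher with library totals and 0 with the block. Leaving out a heart gave 0 to 1. Of 136 pathway genes, library totals gave 4 higher, DESeq2 2 higher and 2 lower, limma-voom 2 higher, and the title series covariate and the block 0 each. Leaving out a heart gave 0 to 1 higher. The causes were not tested. The labels give the groups no shared replicate numbers, so the block of neighbouring title numbers, whose meaning is not stated, was the only blocked fit. The lowest member, Med18, had an interval of -0.54 to 0.37, and the part of depth in its width was not tested.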

Other observations

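Which heart was lowest differed from member to member. Control replicate 3 was the lowest control in 9 of 32 Mediator genes and the highest in 11, and S1Pless replicate 4 was the lowest S1Pless heart in 10 and the highest in 8. Summed over the 32 genes, Mediator transcripts made up 807 to 881 CPM in controls and 801 to 830 CPM in S1Pless hearts.

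Med12l stood at 0.102 to 0.154 of Med12 per kilobase in controls and at 0.0581 to 0.0982 in S1Pless hearts. The ranges did not overlap, by a narrow gap between control replicate 1 and S1Pless replicate 2, although neither gene was called. Among single genes the groups did not overlap in 6.35% of all tested. Exons of Med12l overlap P2ry12 and Igsf10 on the opposite strand. The ratio was computed after the values of both genes were seen and was not tested.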
